A study of Mus musculus with 6 samples.

Results

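The 9 genes described here encode the machinery that receives and relays interferon signals: the receptor chains Ifnar1, Ifnar2, Ifngr1 and Ifngr2, the receptor-bound kinases Tyk2 and Jak2, and the transcription factor genes Stat2, Irf7 and Irf9. They were taken by symbol from the 19937 genes that the array's platform names with 1 symbol on a row. Each of the 9 had a single such row and passed the filter on low values, which kept 15037 genes. They were measured in mouse CD4+ TCRβ+ CD25+ cells, the sort that holds regulatory T cells (Tregs), on 6 single-colour Affymetrix whole-transcript arrays. In the MHC II-deficient group (3 arrays), T cells of wild-type mice had spent 5 days in recipients lacking both CD3ε and MHC class II. In the MHC II-competent group (3 arrays), they had spent 5 days in recipients lacking CD3ε alone. Both groups are C57BL/6 mice of 6 to 8 weeks, with spleen and peripheral lymph nodes as the tissue of origin. CD3ε-deficient hosts have no T cells of their own, while their other cells remain, and the sort used CD25 rather than Foxp3. The replicates are labelled biological and numbered 1 to 3, and whether each is 1 recipient or a pool is not stated, so a p-value here reflects only how far such preparations differ.

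Type I interferons bind a receptor of 2 chains, IFNAR1 and IFNAR2, and interferon-gamma binds another of IFNGR1 and IFNGR2. The chains carry Janus kinases, with TYK2 on IFNAR1 and JAK2 on IFNGR2, which phosphorylate STAT proteins. STAT2 and IRF9 are subunits of ISGF3, the complex that type I interferon sends to the nucleus, where it binds the interferon-stimulated response element (ISRE). IRF7 is kept low in most resting cells, is induced through ISGF3, and drives the transcription of interferon-alpha genes. Stat2, Irf7 and Irf9 are themselves interferon-stimulated genes, and the receptors and kinases act upstream of them. In T cells interferon signals modify survival, proliferation and the suppressive function of Tregs.

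Of the 3 transcription factor genes, Irf7 and Stat2 rose in cells recovered from MHC II-deficient recipients, by 3.44-fold and 2.40-fold. The other 7 genes did not pass the test, and their differences lay between -0.15 and 0.41 on the log2 scale. The count of 2 of 9 stands beside a background of 1.34% of all tested genes called higher, 2.03% called lower and 3.37% called in either direction (507 of 15037) by limma with a Benjamini-Hochberg adjusted p under 0.05. With 1 array left out that total was 159 (without deficient 1), 173 (competent 2), 213 (deficient 2), 249 (competent 1), 320 (deficient 3) and 708 (competent 3), and Irf7 and Stat2 were the 2 called members each time. The 201 higher and 306 lower genes became 230 and 230 under quantile normalization. The groups did not overlap for 6 of the 9 genes, all higher in the MHC II-deficient group, where this held for 24.3% of all tested genes in either direction and for 11.4% in the higher direction. The median log2 difference was 0.33 over the 9 genes and 0.02 over all genes tested.

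**Figure D1:**
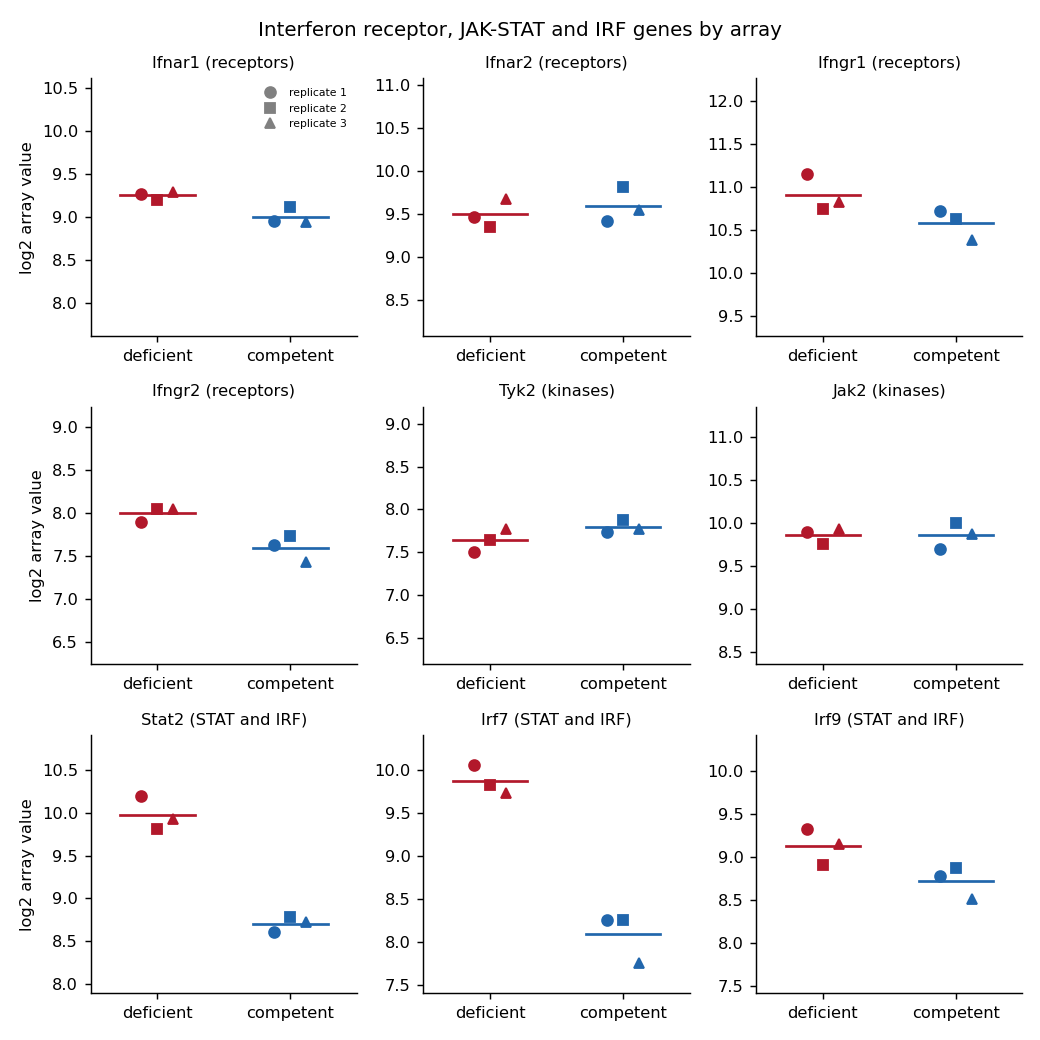
Log2 array value of each of the 9 genes in each array, with the 3 MHC II-deficient arrays in red on the left, the 3 MHC II-competent arrays in blue on the right, symbols for the replicate number and a line at the group mean. Every vertical axis spans the same log2 distance. The groups are far apart for Irf7 and Stat2, lie close without overlap for Ifnar1, Ifngr1, Ifngr2 and Irf9, and overlap for Ifnar2, Tyk2 and Jak2.

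The cells carried the markers of their label. The mean of 8 T cell and Treg genes was 10.86 to 10.94 in MHC II-deficient and 10.94 to 11.13 in MHC II-competent arrays (log2 array values), and Foxp3 averaged 9.77 ± 0.09 in MHC II-deficient and 9.82 ± 0.05 in MHC II-competent arrays (SD, n = 3 each). All 8 lay below 0 (median log2 difference -0.11), and 0 passed limma's test. For 4 of them the groups did not overlap, where 12.9% of all tested genes were lower without overlap. The 2 of the 8 with the highest mean level were Cd3g (-0.14, SE 0.09) and Ctla4 (-0.33, SE 0.11). Markers of another cell type differed more between the groups. The 16 tested macrophage and dendritic cell genes averaged 7.82, 7.60 and 7.01 in MHC II-deficient arrays 1 to 3, against 6.75, 7.12 and 6.19 in MHC II-competent arrays 1 to 3. Of them 14 lay higher, with a median log2 difference of 0.90, and 1 passed the test, Adgre1, which encodes a surface antigen of macrophages. The 2 with the highest mean level, Cst3 (-0.28, SE 0.10, limma adjusted p = 0.18) and Vcam1 (1.22, SE 0.44, adjusted p = 0.17), did not pass. The 6 tested markers of plasmacytoid dendritic cells, which express much Irf7, averaged 6.57 to 6.61 in MHC II-deficient and 6.66 to 6.75 in MHC II-competent arrays. The lower mean comes from Ccr9, a chemokine receptor gene that T cells also express (-1.35), while the other 5 lay above 0 (median of the 6 genes 0.13), Siglech and Pacsin1 without overlap between the groups. Among these 6, Siglech, a surface receptor that defines those cells in mice, stood at 5.70 ± 0.01 in MHC II-deficient and 5.51 ± 0.09 in MHC II-competent arrays (SD, n = 3 each), near the filter value of 5.205. Ms4a1, Fcer2a and Cr2 of B cells and Ncr1, Klrb1c and Klra8 of NK cells lay under that value. The 4 tested B cell genes averaged 6.09 to 6.15 in MHC II-deficient and 5.95 to 6.18 in MHC II-competent arrays. The 4 tested CD8 T and NK genes averaged 7.07 to 7.16 in MHC II-deficient and 6.84 to 6.89 in MHC II-competent arrays. The 3 erythroid and platelet genes averaged 6.33 to 6.66 in MHC II-deficient and 6.08 to 6.48 in MHC II-competent arrays. In these last 4 lists the call was 1, that of Ccr9, and the leading members by mean level, Pacsin1 (0.14), Cox6a2 (0.06), Cd79b (-0.39), Blk (0.19), Cd8b1 (0.26), Prf1 (0.14), Alas2 (0.52) and Itga2b (0.12), did not pass. In whole sorts, a change in the number of cells of a type and a change in RNA per cell cannot be told apart.

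Irf7 (row 10569102) had the largest difference of the 9. Its log2 values were 10.06, 9.83 and 9.73 in MHC II-deficient arrays 1 to 3, against 8.26, 8.26 and 7.75 in MHC II-competent arrays 1 to 3. The lowest deficient array thus lay above the highest competent array, and competent 3 was the lowest of the 6. The difference was 1.78 (SE 0.15, 95% interval 1.44 to 2.13, limma adjusted p = 0.00085), a fold of 3.44 with an interval of 2.71 to 4.38. Only 7 of the 15037 tested genes had a larger log2 difference. With 1 array left out it was 1.61 to 1.87. With the mean of the macrophage and dendritic cell markers as a covariate, the difference was 1.40 (SE 0.16, adjusted p = 0.010). That marker mean itself differed between the groups, at 7.01 to 7.82 in MHC II-deficient and 6.19 to 7.12 in MHC II-competent arrays. Over 6 arrays this covariate can thus take up part of a group difference of any origin.

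Stat2 (row 10367224), the STAT that type I but not type II interferon uses in its main complex, had values of 10.19, 9.81 and 9.92 in MHC II-deficient arrays, against 8.61, 8.78 and 8.73 in MHC II-competent arrays. The competent arrays were tight (SD 0.08) and the deficient arrays spread more (SD 0.19), without overlap. The difference was 1.26 (SE 0.12, 95% interval 1.0 to 1.53, limma adjusted p = 0.0014), and 40 tested genes had a larger one. It was 1.16 to 1.35 with 1 array left out and 1.17 (SE 0.18, adjusted p = 0.029) with the macrophage marker covariate.

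Irf9 (row 10415319), which gives ISGF3 its DNA-binding specificity, did not pass. It had 9.33, 8.91 and 9.15 in MHC II-deficient arrays, against 8.78, 8.87 and 8.51 in MHC II-competent arrays. The groups met closely, with deficient 2 only just above competent 2. The difference was 0.41 (SE 0.14, 95% interval 0.10 to 0.72, limma adjusted p = 0.15), and the interval is not adjusted for the number of genes. It was 0.31 to 0.52 with 1 array left out, 0.48 under quantile normalization and 0.20 (SE 0.19, adjusted p = 0.63) with the macrophage marker covariate.

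**Figure D2:**
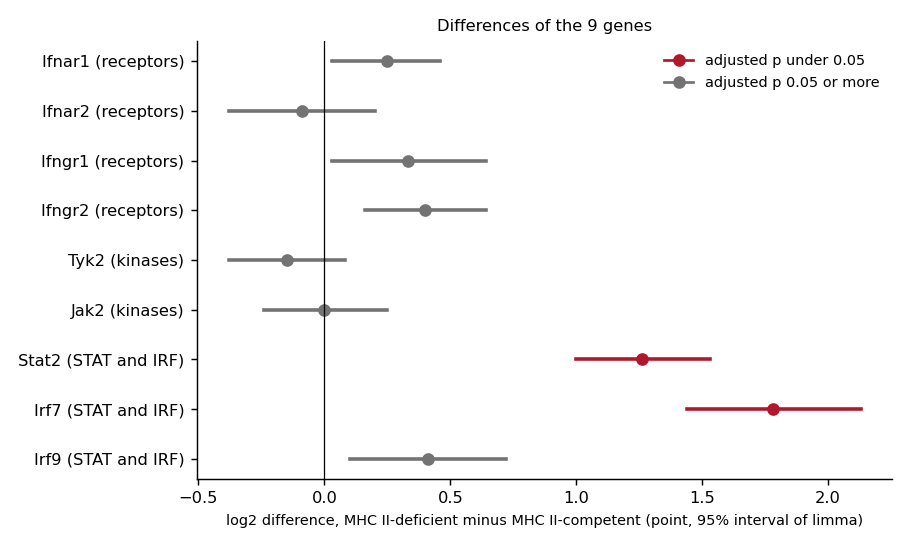
Log2 difference of each of the 9 genes, MHC II-deficient minus MHC II-competent, as a point with its 95% interval from limma over 3 arrays per group. Irf7 (1.78) and Stat2 (1.26) stand apart in red, Ifnar1, Ifngr1, Ifngr2 and Irf9 have intervals just above 0, and those of Ifnar2, Tyk2 and Jak2 span 0.

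The promoters of the called genes, Irf7 and Stat2, are shown because the ISRE is the element bound by the complex that STAT2 itself belongs to. The windows run from 250 bases before to 50 after the RefSeq start site (GRCm38.p6), and all 9 genes had 1 or more. Capitals mark the ISRE core, searched as GAAANNGAAA on both strands.
Stat2, chr10:128270248-128270547, plus strand: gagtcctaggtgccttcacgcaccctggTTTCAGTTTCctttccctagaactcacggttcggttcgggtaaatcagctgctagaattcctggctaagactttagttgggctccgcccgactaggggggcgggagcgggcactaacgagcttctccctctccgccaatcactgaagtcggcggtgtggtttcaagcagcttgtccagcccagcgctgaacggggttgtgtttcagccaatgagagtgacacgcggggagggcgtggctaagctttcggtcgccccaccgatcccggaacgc
Irf7, chr7:141266375-141266674, minus strand: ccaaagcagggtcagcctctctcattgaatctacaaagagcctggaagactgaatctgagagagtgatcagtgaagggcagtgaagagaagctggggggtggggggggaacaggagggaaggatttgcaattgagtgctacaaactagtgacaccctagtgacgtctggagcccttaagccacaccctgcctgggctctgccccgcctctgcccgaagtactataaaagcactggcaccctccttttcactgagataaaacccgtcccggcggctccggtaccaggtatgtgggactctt
The Stat2 window held 1 match, which starts 222 bases upstream of the start site and reads TTTCAGTTTC because it lies on the strand opposite to the gene. The windows of the other 8 genes held no match to these letters, that of Irf7 among them. Over all 32851 promoter windows 3.44% held the core. Among genes with a window it was found for 38 of 155 genes called higher (24.5%), 4 of 232 called lower (1.72%) and 435 of 11885 tested genes (3.66%), given as a description without a test. The core of the gamma-activated site (GAS), the element bound by STAT dimers after interferon-gamma, was searched as TTCNNNGAA, which reads alike on both strands. It was in 8.30% of all windows and in those of 2 of the 9 genes, as TTCACGGAA starting 5 bases upstream of the Ifnar1 start site and as TTCCTGGAA starting 214 bases upstream of that of Ifnar2.

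Both interferon-gamma receptor chains had higher values in MHC II-deficient arrays, short of the threshold. Ifngr2 (row 10436865), the signalling chain that binds JAK2, had 7.90, 8.04 and 8.04 in MHC II-deficient arrays, against 7.63, 7.73 and 7.43 in MHC II-competent arrays. Its groups did not overlap, with competent 3 lowest. The difference of 0.40 (SE 0.11, 95% interval 0.16 to 0.64) had a limma adjusted p of 0.082, the smallest among the 7 genes not called, and it passed under quantile normalization of the arrays (0.44, adjusted p = 0.043).

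Ifngr1 (row 10361897), the ligand-binding chain, had 11.15, 10.74 and 10.83 in MHC II-deficient arrays, against 10.72, 10.63 and 10.38 in MHC II-competent arrays. Deficient 1 was the highest array, and deficient 2 and competent 1 were almost level. The difference of 0.33 (SE 0.14, 95% interval 0.03 to 0.64, limma adjusted p = 0.22) was 0.21 to 0.42 with 1 array left out, lowest without deficient 1. It was 0.41 under quantile normalization and 0.10 (SE 0.18) with the macrophage marker covariate.

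The type I receptor chains lay on opposite sides of 0. Ifnar1 (row 10436849), which binds TYK2, had 9.27, 9.20 and 9.29 in MHC II-deficient arrays, against 8.96, 9.12 and 8.94 in MHC II-competent arrays. The groups were tight and did not overlap, yet the difference of 0.25 (SE 0.10, 95% interval 0.03 to 0.46) did not pass (limma adjusted p = 0.20).

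Ifnar2 (row 10436830), the chain with the higher affinity for type I interferon, had 9.47, 9.35 and 9.68 in MHC II-deficient arrays, against 9.42, 9.81 and 9.55 in MHC II-competent arrays. The groups overlapped throughout. The difference of -0.09 (SE 0.13, 95% interval -0.38 to 0.20, limma adjusted p = 0.76) changed sign without competent 2 (0.013). Ifnar2, Il10rb, Ifnar1 and Ifngr2 are consecutive protein-coding genes on mouse chromosome 16 in the RefSeq annotation. Il10rb, which encodes a chain shared by the receptors of interleukin-10 and interferon-lambda, had a difference of 0.27 (SE 0.12, adjusted p = 0.27).

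Neither kinase gene moved beyond the spread of the arrays. Tyk2 (row 10591446) had 7.51, 7.65 and 7.77 in MHC II-deficient arrays, against 7.74, 7.88 and 7.77 in MHC II-competent arrays. Its difference was -0.15 (SE 0.10, 95% interval -0.38 to 0.08, limma adjusted p = 0.47), with deficient 3 level with competent 3. Jak2 (row 10462363) had 9.89, 9.75 and 9.93 in MHC II-deficient arrays, against 9.70, 10.00 and 9.87 in MHC II-competent arrays.

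For Jak2 the group means were level, at 9.86 ± 0.09 in MHC II-deficient and 9.86 ± 0.15 in MHC II-competent arrays (SD, n = 3 each). Its 95% interval of -0.24 to 0.25 corresponds to 0.844-fold to 1.19-fold (limma adjusted p = 1.0). The sign of this near-zero difference was not stable across the alternatives.

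Means over the transcription factor genes and over the upstream genes were set side by side, without a test of the difference between them. The mean of Stat2, Irf7 and Irf9 was 9.86, 9.51 and 9.60 in MHC II-deficient arrays, against 8.55, 8.64 and 8.33 in MHC II-competent arrays, a difference of 1.15 that Irf7 and Stat2 carry, since Irf9 had 0.41, near the 0.40 of Ifngr2 and the 0.33 of Ifngr1, and 0.20 with the macrophage marker covariate. The mean of the 6 receptor and kinase genes was 9.20, 9.12 and 9.26 in MHC II-deficient arrays, against 9.03, 9.19 and 8.99 in MHC II-competent arrays, a difference of 0.12. The first set of values leaves a gap between the groups, while in the second competent 2 lay among the deficient arrays. The mean of the receptor genes alone was 9.45, 9.33 and 9.46 in MHC II-deficient arrays, against 9.18, 9.32 and 9.08 in MHC II-competent arrays. That difference was 0.22, with deficient 2 only just above competent 2, and the mean of the kinase genes differed by -0.08. Of the 6 receptor and kinase genes, 0 passed limma's adjusted threshold and 3 had an unadjusted p under 0.05 (Ifnar1, Ifngr1 and Ifngr2).

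The change within pairs of partner genes was followed as the log2 difference between their rows in each array. The level of such a value depends on the probes, so only its change between groups is read. Stat2 minus Irf9 was 0.85, 0.90 and 0.77 in MHC II-deficient arrays, against -0.17, -0.09 and 0.22 in MHC II-competent arrays, with a shift of 0.85. Irf7 minus Irf9 was 0.72, 0.91 and 0.59 in MHC II-deficient arrays, against -0.53, -0.60 and -0.76 in MHC II-competent arrays, with a shift of 1.37. Neither overlapped between the groups, so in these 6 arrays Irf9 differed less than its partners did.

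Irf7 minus Stat2 shifted by 0.52 and Ifnar1 minus Ifnar2 by 0.34, likewise without overlap. Ifngr1 minus Ifngr2 shifted by -0.06 and Tyk2 minus Jak2 by -0.15, both with overlap. The exact two-sided permutation p was 0.10 for each of the 4 pairs without overlap, which is the smallest that 3 against 3 arrays can give, 0.80 for Ifngr1 and Ifngr2 and 0.30 for Tyk2 and Jak2. Adjusted over the 6 pairs, which were chosen with the genes' values known, the exact permutation p was 0.15 for each of the 4. No pair could have come under 0.05 with 3 against 3 arrays, so that threshold decides nothing here.

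**Figure D3:**
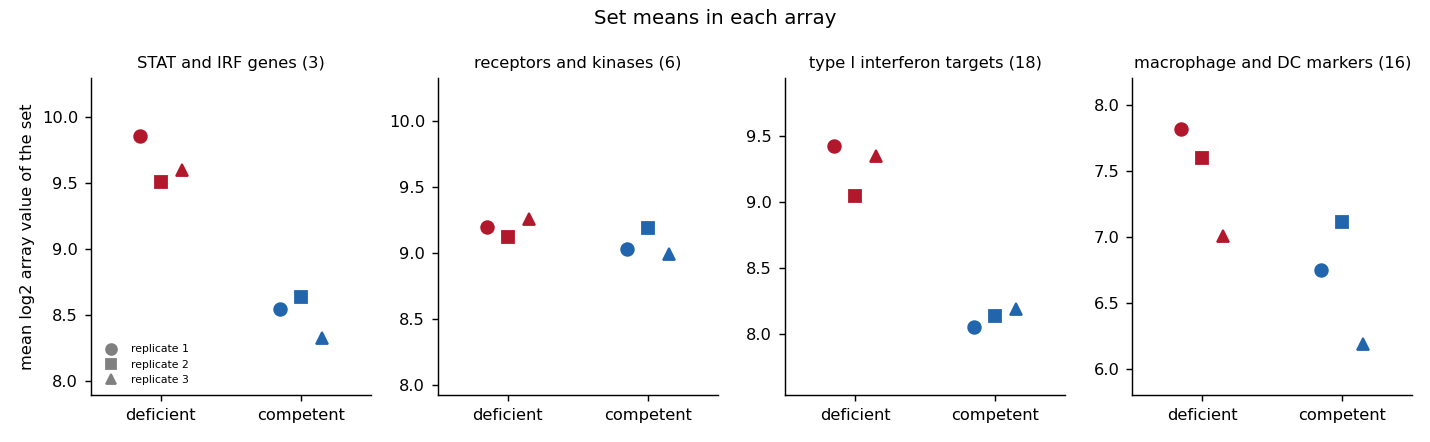
Mean log2 array value of the 3 STAT and IRF genes, the 6 receptor and kinase genes, 18 type I interferon targets and 16 macrophage and dendritic cell (DC) markers in each array, MHC II-deficient in red on the left and MHC II-competent in blue on the right. Every vertical axis spans the same distance. STAT and IRF genes (9.51 to 9.86 against 8.33 to 8.64) and targets (9.04 to 9.42 against 8.05 to 8.19) separate the groups, and the marker means lie at 7.01 to 7.82 against 6.19 to 7.12.

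The arrays of a group differed among themselves as well. Deficient 1 had the highest value of its group for Ifngr1, Stat2, Irf7 and Irf9, and deficient 3 for Ifnar1, Ifnar2, Tyk2 and Jak2. Deficient 2 had the lowest for 6 of the 9. Competent 2 had the highest of its group for 8 of the 9, all but Ifngr1, and competent 3 the lowest for Ifnar1, Ifngr1, Ifngr2, Irf7 and Irf9. Competent 2 and competent 3 were also the competent arrays with the highest and lowest macrophage marker means, 7.12 and 6.19, and deficient 1 was the deficient array with the highest, 7.82. Deficient 3, the highest of its group for 4 of the 9, had the lowest marker mean of that group, 7.01. Deficient 2, the lowest for 6 of the 9, lay between at 7.60. The part of macrophages in the order of the arrays was not tested. The mean of the type I interferon targets was 9.42, 9.04 and 9.35 in MHC II-deficient arrays 1 to 3, so that deficient 1 was highest as it was for the markers, against 8.05, 8.13 and 8.19 in MHC II-competent arrays 1 to 3, where competent 3 was highest for the targets and lowest for the markers.

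The genes whose 6-array profile, centred on its own mean, lay nearest to that of Irf7 were Rnf213, Ddx60, Ms4a4c, Cxcl10 and Jaml, at root mean square distances of 0.25 to 0.26 on the log2 scale. Rnf213 encodes a large ubiquitin ligase, Ddx60 a helicase-like antiviral protein, Ms4a4c a membrane protein of the MS4A family, Cxcl10 a chemokine and Jaml an adhesion molecule. Rnf213, the nearest, had 10.43, 10.10 and 10.30 in MHC II-deficient arrays, against 8.47, 8.71 and 8.71 in MHC II-competent arrays. Nearest to Stat2 were Xaf1, Parp12, Ifit1, Jaml and Mx1, at 0.10 to 0.14. Xaf1 encodes an interferon-induced factor of cell death, Parp12 an ADP-ribosyltransferase, and Ifit1 and Mx1 antiviral effectors. Xaf1 had 9.94, 9.58 and 9.90 in MHC II-deficient arrays, against 8.64, 8.73 and 8.56 in MHC II-competent arrays. All 9 genes named here were past limma's threshold, which their choice by nearness to called genes favours. With the macrophage marker covariate, a fit with 3 residual degrees of freedom in place of 4, those of Jaml (difference 1.11, adjusted p = 0.062), Mx1 (1.34, adjusted p = 0.067) and Parp12 (0.93, adjusted p = 0.10) were not. Without the covariate the differences were 1.38 for Jaml, 1.40 for Mx1 and 1.08 for Parp12.

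Among the other receptor, JAK, STAT and IRF genes, 1 rose and 1 fell of 14 tested, with a median log2 difference of 0.12. Irf1, a transcription factor that STAT dimers induce after interferon-gamma, had 9.15, 9.16 and 9.12 in MHC II-deficient arrays, against 8.51, 8.50 and 8.15 in MHC II-competent arrays. Its difference of 0.76 (SE 0.12, limma adjusted p = 0.010) was called, but not without deficient 1, where the difference was as large (0.76, adjusted p = 0.050), or with the macrophage marker covariate (0.57, adjusted p = 0.15). Irf4, an IRF that T cell receptor signals induce and that effector Tregs need, fell by 0.89 (SE 0.12, adjusted p = 0.0066), with 6.55, 6.67 and 6.70 in MHC II-deficient arrays, against 7.60, 7.71 and 7.28 in MHC II-competent arrays. Irf1 and Irf4 thus lay on opposite sides of 0 without overlap between groups. Irf5, which acts downstream of Toll-like receptors, had a difference of -0.30 (SE 0.10, adjusted p = 0.14) and did not pass.

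The kinase Jak1, which serves both interferon receptors, had 11.45, 11.51 and 11.51 in MHC II-deficient arrays, against 11.46, 11.49 and 11.35 in MHC II-competent arrays, and was named after its values were seen. Its difference was 0.06 (SE 0.09, limma adjusted p = 0.79), and its groups overlapped as those of Tyk2 and Jak2 did.

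Of 13 genes that restrain the pathway, 1 rose and 0 fell (median difference 0.02). Usp18, whose product binds IFNAR2 and dampens type I interferon signalling, had 9.96, 9.56 and 9.94 in MHC II-deficient arrays, against 8.25, 8.07 and 8.56 in MHC II-competent arrays. It was 2.88-fold higher (log2 1.52, SE 0.15, limma adjusted p = 0.0020). The suppressor of cytokine signalling gene Socs2 (-0.48, SE 0.15, adjusted p = 0.11) and the phosphatase gene Ptpn2 (-0.39, SE 0.11, adjusted p = 0.10) did not pass. Socs2 passed without competent 1 (-0.64, adjusted p = 0.042).

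Interferon genes gave no call. Of 21 listed, 15 had a row, 8 of these lay under the filter value, Ifnb1 and Ifna4 among them, and 0 of the 7 tested passed limma's threshold, with 1 at an unadjusted p under 0.05. That gene was Ifng, with 6.75, 6.68 and 6.85 in MHC II-deficient arrays, against 6.95, 6.94 and 7.63 in MHC II-competent arrays. Its groups did not overlap, and competent 3 stood above all other arrays. The difference was -0.41 (SE 0.18, adjusted p = 0.25), but -0.18 without competent 3 and -0.01 with the macrophage marker covariate. Ifna16 had a difference of 0.30 (SE 0.15, adjusted p = 0.33), and of 0.13 without deficient 2, and rows of interferon-alpha genes can bind transcripts of their near-identical copies.

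Of 13 tested sensors and adaptors that lead to IRF3 and IRF7, 2 rose and 0 fell (median difference 0.06). Tlr7, an endosomal receptor for single-stranded RNA, had 7.57, 7.45 and 7.62 in MHC II-deficient arrays, against 6.65, 6.49 and 6.77 in MHC II-competent arrays. It was 1.89-fold higher (log2 0.92, SE 0.11, limma adjusted p = 0.0032). Ifih1, the cytosolic RNA sensor MDA5 and itself an interferon-stimulated gene, was 1.70-fold higher (log2 0.77, SE 0.10, adjusted p = 0.0062). The DNA sensor gene Cgas (-0.39, SE 0.11, adjusted p = 0.10) and the adaptor gene Myd88 (-0.30, SE 0.10, adjusted p = 0.16) lay lower without passing.

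Of 18 tested targets of type I interferon, 17 rose, with a median log2 difference of 1.01. The calls with the smallest p were those of Oasl2 (2.32, SE 0.13), Ifit1 (1.45, SE 0.12), Rtp4 (0.94, SE 0.10) and Xaf1 (1.16, SE 0.12), and Eif2ak2, which encodes the kinase PKR, did not pass (0.25, SE 0.15, limma adjusted p = 0.39). The macrophage and dendritic cell markers lay higher beside them (median 0.90), and 9 of the 18 passed with those markers' mean as a covariate. Their median difference in that fit was 1.02, with a median SE of 0.20 against 0.14 without the covariate. Of 13 tested targets of interferon-gamma, 3 rose and 0 fell, with a median of 0.28. They were Cxcl10 (1.39, SE 0.15, adjusted p = 0.0028), Cd274, which encodes the ligand PD-L1 (0.92, SE 0.16, adjusted p = 0.020), and the guanylate-binding protein gene Gbp5 (0.45, SE 0.10, adjusted p = 0.046).

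Among the called interferon-gamma targets, the calls of Gbp5 and Cd274 did not hold under every alternative. That of Gbp5 lay near the threshold (limma adjusted p = 0.046), and fits with 1 array left out have 3 residual degrees of freedom in place of 4. Cxcl10 stayed called under all 15 alternatives, with a limma adjusted p up to 0.049 (macrophage marker covariate). Gbp5 was not called without any 1 of 5 arrays, competent 3 being the exception (highest adjusted p = 0.16), with differences of 0.38 to 0.48 in those 5 fits, nor under median centring (0.39, adjusted p = 0.060), the replicate block (0.45, adjusted p = 0.060) or the macrophage marker covariate (0.58, adjusted p = 0.12). Cd274 was not called without competent 2 (0.78, adjusted p = 0.077), so that 1 call was left without competent 2. Irgm1, an interferon-inducible GTPase gene (0.76, SE 0.18, adjusted p = 0.060), and Tap1, a peptide transporter gene (0.37, SE 0.13, adjusted p = 0.16), did not pass. Irgm1 passed under quantile normalization (adjusted p = 0.039), the trended robust prior (0.049), array weights (0.039), the replicate block (0.028) and without competent 3 (0.52, adjusted p = 0.039), and its difference was 0.35 with the macrophage marker covariate. Many of these genes answer to both interferon types, and the difference between the 2 target lists was not tested.

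**Figure D4:**
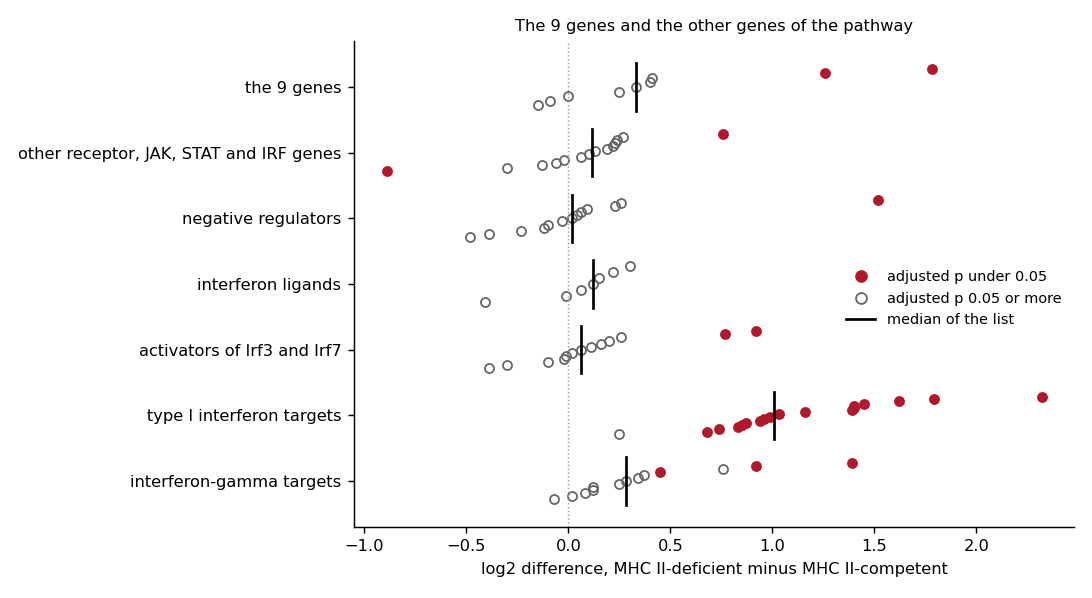
Log2 difference (MHC II-deficient minus MHC II-competent) of every tested gene among the 9 genes and 6 lists of other pathway genes, filled in red where limma's adjusted p is under 0.05 and open otherwise, with a bar at each median. The type I targets lie to the right (median 1.01) and the other lists centre between 0.02 and 0.28, with single called genes such as Usp18 (1.52) and Irf4 (-0.89) far from their list.

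**Figure D5:**
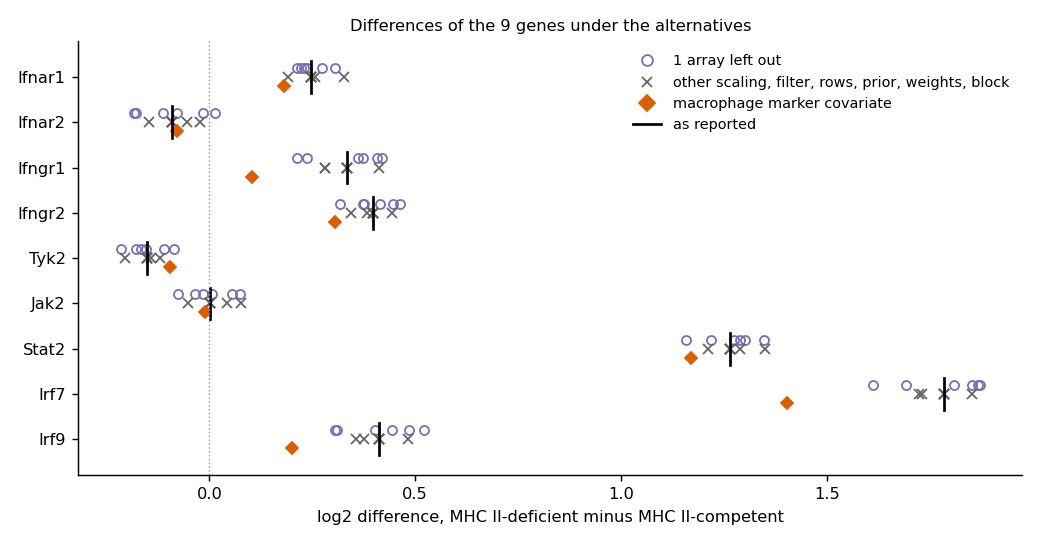
Log2 difference of each of the 9 genes as reported (bar), with each of the 6 arrays left out (circles), under other scalings, filters, row choices, priors, weights and the block (crosses), and with the macrophage marker mean as a covariate (diamonds). Irf7 stays between 1.40 and 1.87 and Stat2 between 1.16 and 1.35. With the covariate, which itself differs between the groups, Irf9 is at 0.20 and Ifngr1 at 0.10.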

How the data were processed

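Each array held cDNA made from 100 ng of total RNA, per the labels' protocols. The authors deposited 1 log2 value per array for 28101 rows, made with the R package affy and RMA per the submitters' processing notes. Log base 2 is taken from RMA's usual output and the range of 2.40 to 13.3. Array medians were 6.11 to 6.25. Detection calls and scanner files were not used here, so the precision rests on the number of arrays.

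Rows were named from the platform annotation with symbols updated by Entrez identifier (GRCm38.p6 RefSeq table): 21640 had 1 symbol, 1321 several and 5140 none. Each gene kept its row with the highest mean, and genes averaging under 5.205, the 25th percentile of single-symbol rows, were left out. The test on the deposited values was limma's (version 3.58.1, under R 4.3.3, lmFit and eBayes, two-sided, without covariates, 4 residual degrees of freedom), with Benjamini-Hochberg adjustment over 15037 genes. Errors are limma's SE, or the SD over 3 arrays.

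The members, the 6 pathway lists, the 6 marker lists and the tests were chosen with earlier results of these data known. Named genes were all members, up to 4 called genes per direction and the 2 largest uncalled differences of each list, the 5 nearest profiles to Irf7 and Stat2, and the 2 markers of each cell type list with the highest mean. Other markers and Jak1 were named after their values were seen. Alternatives covered scaling, filter, row choice, prior, array weights, the replicate number as a block, a macrophage marker covariate and leaving out each array. Same-numbered arrays did not deviate together (correlations of -0.025, -0.141 and 0.069).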

Additional observations from a re-analysis of the deposited data

How the results depend on the processing

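Under all 15 alternatives Irf7 and Stat2 were past the threshold, with adjusted p up to 0.010 and 0.029, and Ifnar1, Ifngr1, Irf9, Tyk2, Ifnar2 and Jak2 were not. Ifngr2 passed under quantile normalization alone (0.444). Jak2 changed sign with median centring (-0.053) and the macrophage marker covariate (-0.011), and ran from -0.077 to 0.074 with 1 array left out, as Ifnar2 did from -0.183 to 0.013. The cause was not tested. The count of all genes called was 101 with the covariate and 159 to 708 with 1 array left out. The covariate fit leaves 3 residual degrees of freedom, and the covariate itself differs between the groups. With the covariate 1 other receptor, JAK, STAT or IRF gene and 9 type I targets passed. With 1 array left out, 1 to 2 of the other receptor, JAK, STAT and IRF genes, 1 to 2 negative regulators and 1 to 4 interferon-gamma targets passed. In the deviations of the arrays from their group means, the replicate numbers of the labels did not show as pairs. The highest correlation of such deviations was that of deficient 2 with competent 1 (0.168). With the replicate block 564 genes were called, Irf7 and Stat2 among them. With 3 arrays per group, the SE of the receptor differences is 0.10 to 0.14, which limits what can be called among them.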
